A study of Mus musculus with 2 samples.

Results

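The aminoacyl-tRNA synthetases are the enzymes that charge each transfer RNA with its amino acid. Their genes were taken as the protein-coding genes of GENCODE M21 with a synthetase symbol: a letter followed by ars or ars2, with Eprs, Farsa, Farsb and Tarsl2. This gave 38 of the 21474 protein-coding genes in the deposited tables. The rule itself used no measured value, but the members were chosen with earlier results of these data known. By textbook location, 19 encode cytosolic enzymes, 17 encode mitochondrial enzymes, and 2, Gars and Kars, serve both compartments. The series holds 1 group with 2 biological replicates, and its tissue is frontal cortex from adult mice (C57BL/6J, age 8 weeks). The labels call the tissue a pool of males and females, and neither a treatment nor a modified allele is listed. Polyadenylated RNA longer than 200 nt, depleted of ribosomal RNA, was sequenced as stranded read pairs. No conditions can be compared, and the text gives mRNA levels and how far the 2 libraries differed.

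Protein synthesis runs in the cytosol and, for the few proteins encoded by mitochondrial DNA, inside the mitochondrion. Each compartment needs a charged tRNA for every amino acid, and most amino acids have 1 nuclear gene for the cytosolic enzyme and another for the mitochondrial enzyme. Several cytosolic synthetases are held together in a multi-synthetase complex by the scaffold proteins Aimp1, Aimp2 and Eef1e1. Inherited defects of synthetases, both cytosolic and mitochondrial, are known causes of disorders of nerve and white matter. In cells short of amino acids the transcription factor Atf4 raises many cytosolic synthetase genes through a short element in their promoters.

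Expected counts, the authors' estimated fragments per gene, summed to 106084891 in replicate 1 and 90476207 in replicate 2. Excitatory neuron (4 of 4), inhibitory neuron (3 of 3), astrocyte (4 of 4) and oligodendrocyte (3 of 3) markers were all above 5 TPM in both libraries. TPM is a share of transcripts adjusted for transcript length. The choroid plexus markers Ttr and Folr1 stood at 0.890 ± 0.057 and 0.800 ± 0.311 TPM (SD, n = 2). The libraries stood apart in sex-linked genes despite their common label: Xist had 0.25 TPM in replicate 1 but 110 TPM in replicate 2. The Y-linked Eif2s3y was at 53.8 and 0.05 TPM. Ddx3y, Kdm5d and Uty, also Y-linked, were at 13.8, 11.1 and 6.44 TPM in replicate 1 and at 0.01 TPM or less in replicate 2. By these genes replicate 1 was male and replicate 2 female, so every SD and replicate ratio also spans that difference. In this bulk tissue, fewer cells of a type and less RNA per cell cannot be told apart.

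All 38 synthetase mRNAs were detected above 1 TPM in both libraries, and 27 reached 10 TPM in both. Of all 21474 protein-coding genes, 13247 were at 1 TPM or more, and the share at 10 TPM in both libraries was 35.7%. By compartment, 17 of 19 cytosolic genes, 2 of 2 genes serving both compartments and 8 of 17 mitochondrial genes passed 10 TPM. The median level of the cytosolic genes was 28.5 TPM in replicate 1 and 25.6 TPM in replicate 2. The mitochondrial median was 9.73 and 9.39 TPM. On the log2 scale the cytosolic median was 1.50 ± 0.07 (SD, n = 2) above the mitochondrial median, and the libraries did not overlap. It was 1.51 ± 0.06 without Lars2. Over transcripts with a complete annotated coding sequence alone, the difference was 0.92 ± 0.09. With 2 libraries an exact two-sided sign-flip test cannot give a p under 0.5, so these differences are set against the spread between libraries.

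**Figure D1:**
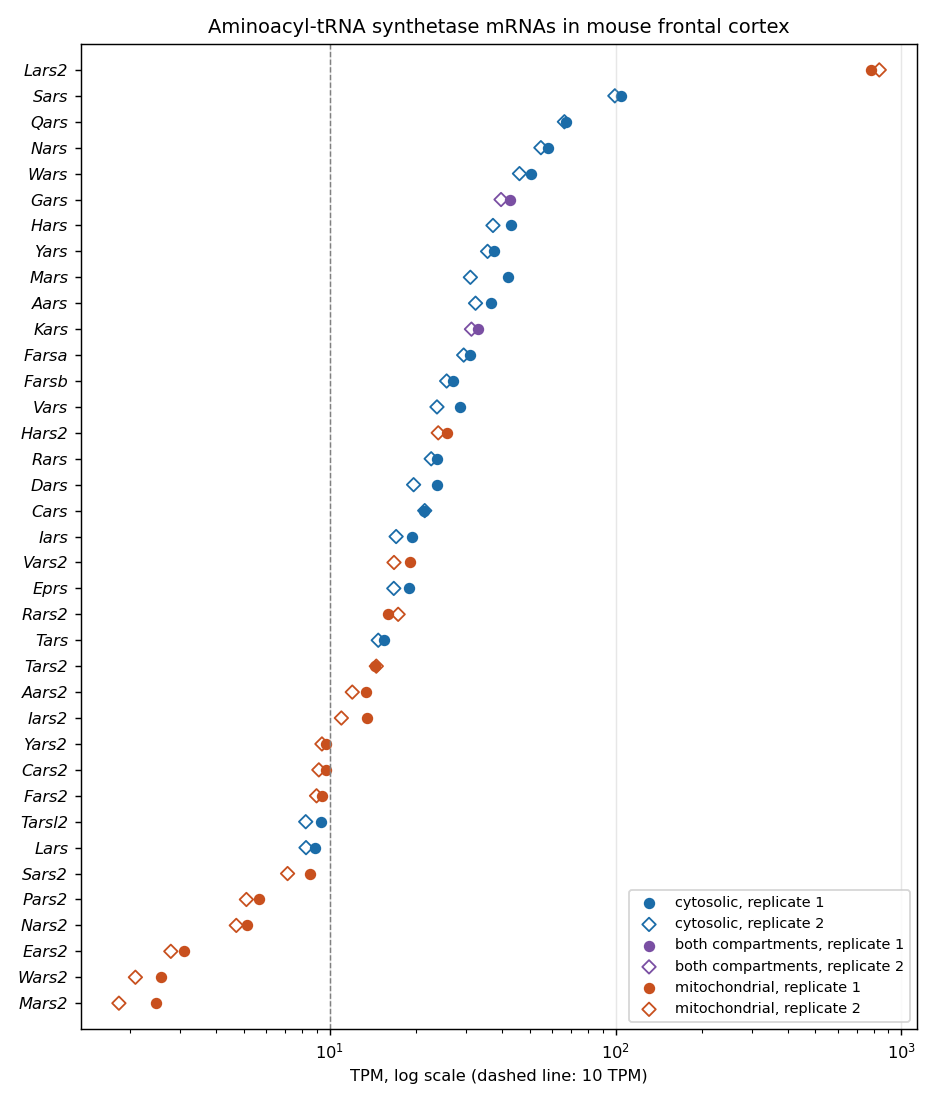
TPM of 37 synthetase genes on a log axis, ordered by mean level, with filled circles for replicate 1 and open diamonds for replicate 2, coloured by compartment. Lars2 stands alone at 781 and 836 TPM, and the lowest 6 genes are all mitochondrial.

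Lars2, which charges mitochondrial leucyl-tRNA, was far above the other members. Its level was 781 TPM in replicate 1 and 836 TPM in replicate 2, from 237375 and 229840 counts. The next member, Sars, was at 104 and 99.4 TPM, so Lars2 was 7.50-fold and 8.41-fold higher. Against Hars2, the next mitochondrial gene, it was 30.4-fold and 34.9-fold higher. Lars2 took 46.1% and 49.9% of the summed TPM of all 38 genes and ranked 53 among protein-coding genes by mean TPM. The cytosolic leucyl enzyme Lars was at 8.85 and 8.26 TPM, so the leucyl pair had the order opposite to nearly all others.

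The Lars2 gene lies at chr9:123366927-123462666 on the plus strand (mm10) and has 1 annotated transcript in the deposited tables, so no split between transcripts enters its level. The deposited posterior SD of its count was 0 in both libraries, as it was for 37 of the 38 members. Its deposited TPM lay above its own upper bound in both libraries, 778 and 833 TPM, the only member for which TPM fell outside the bounds. In GENCODE M21 the transcript is 3894 nt long, with a 3′ UTR of 986 nt. All of its 31-nt windows were searched in the other annotated transcripts on both strands. Windows were shared with transcripts of 2 genes, AA474408 (26 windows) and Gm15564 (22 windows), and all lay in the 3′ UTR. The longest stretch shared with Gm15564 was 52 nt. Those genes had few counts themselves, 67 and 57 for AA474408 and 6 and 3 for Gm15564. Gm42418, a noncoding gene that overlaps ribosomal RNA sequence, shared no such window and had 1368673 and 1411971 counts. Gm26917, on the same chromosome as Gm42418, shared none either and had 52900 and 69300 counts. Scaled between libraries, Gm42418 and Gm26917 were higher in replicate 2 by log2 ratios of 0.33 and 0.67, and Lars2 by 0.23. The search took exact matches in annotated transcripts only, so other sequence was not covered. Whether reads from other sources enter the Lars2 count was not tested.

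Among the remaining cytosolic enzymes, Sars, which charges serine and selenocysteine tRNAs, was the highest at 104 and 99.4 TPM. Qars, the glutaminyl enzyme, followed at 67.0 and 66.2 TPM. Nars, the asparaginyl enzyme, was at 58.0 and 54.8 TPM. Wars, the tryptophanyl enzyme, was at 50.6 and 46.1 TPM. The deposited intervals of these 4 genes did not overlap in either library, and their order was the same in both. Qars held that rank over all its transcripts only: its complete coding transcripts came to 17.4 and 14.1 TPM, below those of Nars and Wars. Hars, Yars, Mars and Aars, for histidine, tyrosine, methionine and alanine, had means from 34.5 to 40.2 TPM. Hars was at 43.1 and 37.2 TPM, Yars at 37.7 and 35.7 TPM and Aars at 36.6 and 32.4 TPM. Their order was not resolved: Mars had 42.0 TPM in replicate 1 but 31.0 TPM in replicate 2, and so passed from above Yars to below it.

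The 2 genes that serve both compartments were both high. Gars, the glycyl enzyme, was at 42.9 and 39.7 TPM. Kars, the lysyl enzyme, was at 33.0 and 31.3 TPM. The phenylalanyl enzyme of the cytosol is built from alpha and beta subunits in equal number, encoded by Farsa and Farsb. Farsa was at 30.9 and 29.4 TPM and Farsb at 27.1 and 25.6 TPM. The alpha subunit mRNA was thus slightly higher in both libraries, with a difference of 3.78 TPM against SDs of 1.03 and 1.02. Over transcripts with a complete coding sequence the order was the opposite: Farsa was at 12.7 and 11.6 TPM and Farsb at 21.5 and 18.6 TPM, 1.64-fold higher.

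Between these and the lowest genes lay 5 cytosolic enzymes with close levels. Vars, the valyl enzyme, was at 28.5 and 23.7 TPM. Rars, the arginyl enzyme, was at 23.7 and 22.6 TPM, and Dars, the aspartyl enzyme, at 23.7 and 19.7 TPM. Cars, the cysteinyl enzyme, was at 21.4 and 21.5 TPM, and Iars, the isoleucyl enzyme, at 19.4 and 17.1 TPM. Cars was the only cytosolic gene with the higher TPM in replicate 2, and the order of Dars and Cars changed between libraries.

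The lowest cytosolic members were Lars and Tarsl2. Tarsl2, a paralog of the threonyl enzyme Tars, was at 9.35 and 8.24 TPM, while Tars was at 15.4 and 14.8 TPM. Tars exceeded Tarsl2 by 0.78 ± 0.09 on the log2 scale of TPM, beyond the spread. Eprs, which joins the glutamyl and prolyl activities in 1 protein, was at 19.0 and 16.8 TPM. Over the whole list only 9 of 37 neighbours in the order of mean TPM differed beyond their spread in both libraries.

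After Lars2, the highest mitochondrial genes were Hars2 at 25.7 and 24.0 TPM, Vars2 at 19.0 and 16.8 TPM and Rars2 at 16.0 and 17.4 TPM. They charge histidine, valine and arginine. Tars2 (threonine) was at 14.4 and 14.6 TPM, Aars2 (alanine) at 13.44 and 11.99 TPM and Iars2 (isoleucine) at 13.5 and 11.0 TPM. Just under 10 TPM were Yars2 (tyrosine) at 9.73 and 9.39 TPM, Cars2 (cysteine) at 9.72 and 9.16 TPM and Fars2 (phenylalanine) at 9.43 and 8.99 TPM. These 3 could not be put in order, since their intervals overlapped. Sars2 (serine) was at 8.51 and 7.12 TPM, Pars2 (proline) at 5.65 and 5.11 TPM and Nars2 (asparagine) at 5.13 and 4.71 TPM. At the other end Ears2, the glutamyl enzyme, was at 3.10 and 2.78 TPM. Wars2 was at 2.57 and 2.09 TPM. Mars2 was the lowest at 2.47 and 1.83 TPM, although it had 2269 and 1523 counts, more than Ears2 with 743 and 633. Its annotated transcript is 11294 nt long, and TPM divides by that length.

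For 16 amino acids the cytosolic and mitochondrial enzymes could be compared as a pair, with Eprs used for both glutamate and proline. A pair was called beyond the spread when its sign was the same in both libraries, its mean log2 ratio exceeded the SD and the deposited TPM intervals were apart in both. The cytosolic gene was higher in 14 pairs, the mitochondrial gene in 1, and 1 pair was not apart. The median log2 ratio over the 16 pairs was 1.31. The pairs share genes and libraries and are not replicates of each other.

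The widest cytosolic excess was for tryptophan. Wars exceeded Wars2 by 4.38 ± 0.12 (log2, SD, n = 2), or 20.8-fold. Methionine followed at 17.0-fold, serine at 13.1-fold and asparagine at 11.5-fold. From counts not divided by length, 6 of the 16 pairs moved by over 1.5-fold. The log2 ratio of Mars over Mars2 was then 1.61 in place of 4.09, that of Wars over Wars2 3.65 in place of 4.38, and the seryl pair stood level with the tryptophanyl one at 3.66, so the first rank of tryptophan depended on the length correction. Glutamate was at 6.07-fold, tyrosine at 3.83-fold, proline at 3.32-fold, alanine at 2.71-fold and cysteine at 2.27-fold. Without the division by length glutamate was at 9.46-fold, proline at 8.84-fold and alanine at 4.48-fold.

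Narrow pairs were histidine at 1.62-fold, isoleucine at 1.50-fold, valine at 1.46-fold and arginine at 1.39-fold, all still beyond the spread. From counts not divided by length the arginyl excess was 2.13-fold. The threonyl pair was not: Tars was at 15.4 and 14.8 TPM and Tars2 at 14.4 and 14.6 TPM. Its log2 ratio was 0.06 ± 0.05, and the deposited intervals overlapped. For leucine Lars2 was 94.5-fold above Lars, a log2 ratio of -6.56 ± 0.14. Both cytosolic phenylalanyl subunits, kept out of the count, exceeded mitochondrial Fars2, Farsa by 3.27-fold and Farsb by 2.86-fold. Over complete coding transcripts these were 1.32-fold and 2.17-fold. Across the 16 pairs the levels of the partners had a Spearman rho of -0.31, a description over genes of the same libraries. It includes the leucyl pair, which joins the lowest cytosolic level of these pairs to the highest mitochondrial one. The rho without that pair was not computed.

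**Figure D2:**
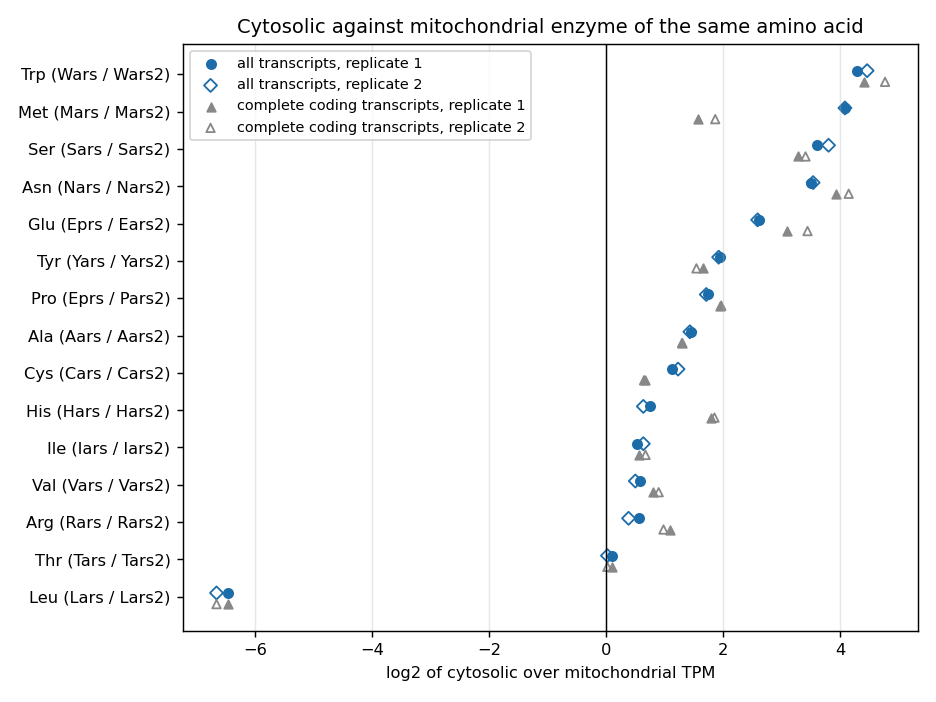
Log2 of cytosolic over mitochondrial TPM for 15 pairs in each library, over all transcripts (blue) and over transcripts with a complete coding sequence (grey). Leucine lies near -6.56, threonine near 0 and tryptophan near 4.38, and the methionyl pair moves from 4.09 to 1.72 between the 2 ways of counting.

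The 8 enzymes of the multi-synthetase complex (Dars, Eprs, Iars, Kars, Lars, Mars, Qars and Rars) had a median of 23.7 TPM in replicate 1 and 21.1 TPM in replicate 2. The 13 other genes with a cytosolic product had medians of 36.6 and 32.4 TPM. The complex members were lower by a log2 difference of -0.62 ± 0.01 between medians. From counts not divided by length, the difference was -0.23 ± 0.04. The groups overlapped widely, since Qars in the complex was at 67.0 TPM in replicate 1 and Tarsl2 outside it at 9.35 TPM. The scaffolds were close to the complex members: Aimp1 was the highest at 29.5 ± 4.4 TPM and Eef1e1 the lowest at 16.6 ± 2.3 TPM (SD, n = 2).

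Synthetases fall into 2 structural classes with unrelated catalytic folds. Among the cytosolic and shared genes the 10 of class I, with Eprs counted there, had medians of 26.1 and 23.2 TPM. The 11 of class II had medians of 33.0 and 31.3 TPM. The difference was -0.39 ± 0.07 (log2). Over complete coding transcripts class II was again higher, at 32.9 and 29.5 TPM against 17.0 and 14.6 TPM. From counts not divided by length (CPM) the order reversed, with 58.9 and 55.2 for class I and 49.4 and 49.5 for class II. Among mitochondrial genes the medians were 9.73 and 9.39 TPM for class I and 10.2 and 10.1 TPM for class II. This difference of -0.09 ± 0.03 did not keep its sign in other settings. Over complete coding transcripts class I was higher, at 9.07 and 9.06 TPM against 8.975 and 8.055 TPM. In CPM class I was also higher, at 15.1 and 16.4 against 14.5 and 14.6. The order of the mitochondrial classes was thus not resolved.

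The transcript tables split each gene over its annotated transcripts. Of the 38 genes, 10 had 1 transcript, among them Lars2, Nars, Hars, Gars, Tars and Mars2. The other 28 had up to 18, the most in Qars. In these 28, at any level, the leading transcript took a median of 74.4% of the gene's TPM in replicate 1 and 67.3% in replicate 2. Over all protein-coding genes of at least 10 TPM that have 2 or more transcripts, the median was 65.8% and 66.7%. The 21 members that meet the same conditions had medians of 73.3% and 61.0%, above that background in replicate 1 and below it in replicate 2. The leading transcript was the same in both libraries for 27 of the 28, with Qars as the exception.

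In 3 genes, Mars and Qars among them, the leading transcript had no complete coding sequence in either library. These were 3 of the 21 members at 10 TPM with at least 2 transcripts, where the share among all such genes was 11.4%. In Mars the retained-intron transcript Mars-205 took 43.8% and 49.4%. The complete Mars-201, with a coding sequence for 902 residues, took 14.0% and 16.5%, or 5.88 and 5.12 TPM. In Qars the retained-intron Qars-215 led replicate 1 with 19.0%, and the incomplete Qars-209, of 459 nt, led replicate 2 with 33.8%. The complete Qars-201 took 18.9% and 14.8%. The deposited Qars transcripts include a retained-intron transcript that GENCODE M21 names Qrich1-208, after another gene. It took 6.26% and 5.1% of the Qars level.

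**Figure D3:**
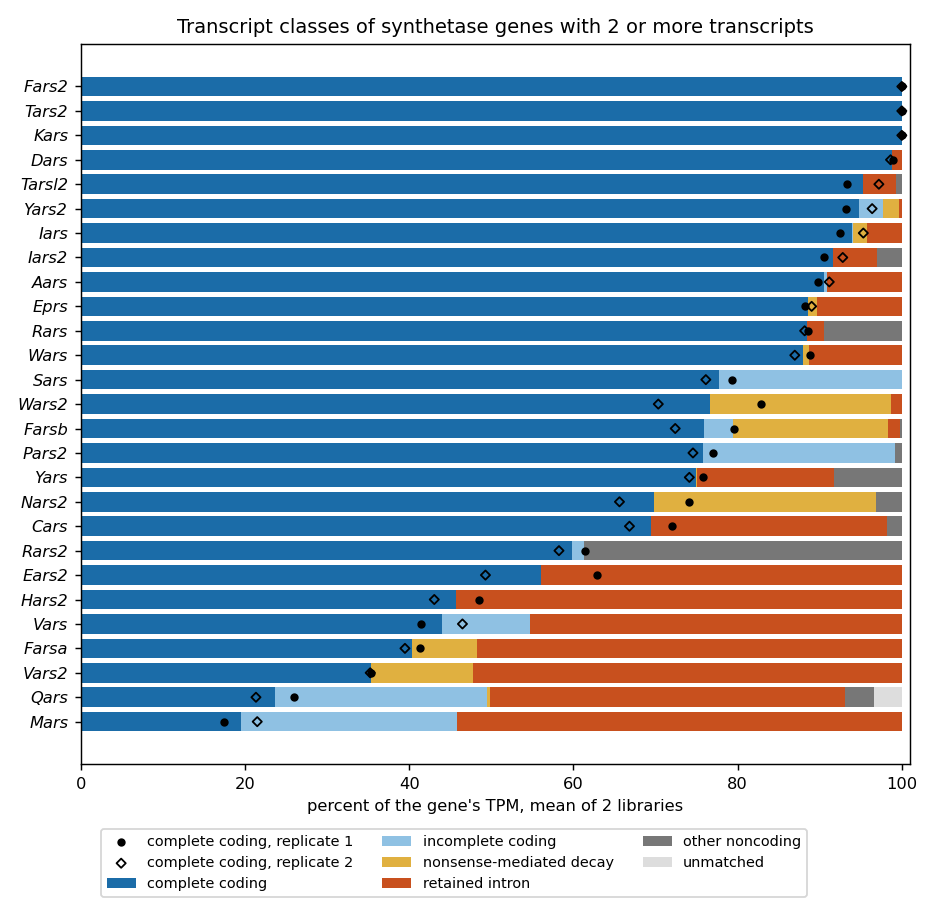
Percent of each gene's TPM by transcript class (bars, mean of 2 libraries) in 27 genes with several transcripts, with markers for the complete coding share in each library. Of the genes drawn, Mars and Qars have the smallest complete coding shares, and Kars, Fars2 and Tars2 are almost wholly complete.

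Complete coding transcripts took under 50% of the gene's TPM in both libraries for 7 members, among them Qars, Mars, Farsa, Vars, Hars2 and Vars2. All 7 were among the 21 at 10 TPM or more with 2 or more transcripts, and 16.4% of all such genes were under 50%. Retained-intron transcripts exceeded 20% in both libraries for 9 members, 8 of them among those 21, beside 18.4% of all such genes. In Farsa they took 52.4% and 51.1%, in Vars2 52.8% and 51.6%, in Hars2 51.6% and 57.0%, and in Vars 44.7% and 45.8%. Both valyl enzymes thus had large retained-intron shares, and the phenylalanyl subunits differed, since Farsb had 1.7% and 1.1%. Shares of short and overlapping transcripts are the authors' estimates.

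Over complete coding transcripts alone the methionyl ratio was 1.72 ± 0.21 (log2), in place of 4.09 over all transcripts. It was 1 of 4 pairs among the 16 that moved by over 1.5-fold. The histidyl excess widened from 1.62-fold to 3.54-fold, and the glutamyl one from 6.07-fold to 9.66-fold. The cysteinyl excess, which moved by less and is not among those 4, was 1.57-fold in place of 2.27-fold. The cytosolic gene was then higher in 15 of 16 pairs by sign and SD, threonine included at 0.06 ± 0.05, with leucine still reversed.

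Kars makes its cytosolic and mitochondrial enzymes by alternative splicing, the longer protein carrying the mitochondrial targeting sequence. Kars-201, whose coding sequence spans 595 residues, stood at 24.2 and 23.2 TPM, or 73.3% and 74.2% of the gene. Kars-202, with 624 residues, stood at 8.25 and 7.21 TPM, or 25.0% and 23.0%. The 2 transcripts kept nearly the same ratio in both libraries. Gars, which separates its forms by the start of translation, had a single annotated transcript. Wars showed the largest difference between libraries in a complete transcript: Wars-205 took 1.21% in replicate 1 and 26.1% in replicate 2, and Wars-201 took 86.8% and 60.3%. Both encode 475 residues, and all complete Wars transcripts together took 88.8% and 87.0%.

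Promoter sequences from RefSeq (GRCm38.p6, which is mm10), 250 bases before to 50 after the annotated start, were found for 28 of the 38 genes, 14 cytosolic or shared and 14 mitochondrial. They were searched on both strands for 6 motifs chosen after the levels were known. The Atf4 element TGATGNAA was in 5 of 14 cytosolic or shared promoters (among them Gars, Iars, Tars and Yars) and in 0 of 14 mitochondrial promoters. Its share among all 27025 genes with a promoter was 4.51%. CCAAT was in 7 of 14 and 6 of 14, beside 41.1% of all genes. CCGGAAG was in 5 of 14 and 4 of 14, beside 9.93%. GCGCANGC was in 5 of 14 and 5 of 14, beside 11.2%. AAGATGGC was in 1 of 14 and 3 of 14, beside 3.19%. TGACGTCA was in 0 of the 28 and in 2.03% of all genes. Longer forms of GCGCANGC and AAGATGGC had been searched first. A match is a description of these letters and not evidence of binding. The matches of Gars and Tars, upstream of the RefSeq start, are shown as examples. They were picked for carrying the motif, which 1219 of all genes with a promoter carry. Capitals mark the match, here on the strand opposite to the gene:
Gars, chr6:55037960-55037989, plus strand: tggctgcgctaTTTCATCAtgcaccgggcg
Tars, chr15:11399659-11399684, minus strand: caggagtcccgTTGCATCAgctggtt

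The Gars match began 30 bases before the RefSeq start and the Tars match 15. Measured from the start of the leading transcript in GENCODE these distances were 36 bases for Gars-201 and 8 for Tars-201. The matches of Iars (TTGCATCA) and Yars (TGATGCAA) lay after the RefSeq start. They also lay after the starts of the leading transcripts, Iars-206 and Yars-201, so inside the annotated genes and not upstream of them. The 5 genes spanned 15.1 to 41.3 TPM in mean level, with Iars and Tars in the lower part of the cytosolic range and Gars in the upper part, so the motif did not mark a common level.

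Genes of the amino acid and stress response were read beside the members. Of 19, 10 were at 10 TPM in both libraries, beside 35.7% of all protein-coding genes. Atf4 itself was the highest at 105 and 107 TPM, and Trib3, a target of the response, the lowest at 0.27 and 0.24 TPM. Asns, which makes asparagine and is a classical Atf4 target, was at 37.8 and 32.9 TPM. Between libraries 3 of the 18 tested were past the replicate threshold upward and 1 downward, beside 8.82% and 9.03% of all genes tested.

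Other factors of tRNA charging spanned a wide range of levels. Mitochondria lack a glutaminyl synthetase and form glutaminyl-tRNA through Gatb, Gatc and Qrsl1, which spanned 7.90 TPM in Gatb to 16.6 TPM in Gatc. Mtfmt, which formylates the mitochondrial initiator methionyl-tRNA, was at 10.4 and 9.71 TPM, against 2.47 and 1.83 TPM for Mars2. Of 7 proofreading and peptidyl-tRNA factors, Dtd1, a D-aminoacyl-tRNA deacylase, was the highest at 31.9 ± 5.1 TPM and Prorsd1 the lowest at 2.44 ± 0.09 TPM. Selenocysteine synthesis starts from the seryl-tRNA made by Sars. Its kinase Pstk was at 19.1 ± 1.7 TPM and Sepsecs at 5.93 ± 0.62 TPM. The elongation factors that receive charged tRNA were higher. Eef1a1 was at 1818 ± 138 TPM in the cytosol. Tufm was at 46.6 ± 0.1 TPM in mitochondria.

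The libraries were compared as log2 of replicate 2 over replicate 1, from CPM, counts scaled to the library total, adjusted by TMM. Of the 38 members, 0 were higher and 1 was lower by 0.25 or more. With 1 library on each side no p was computed. Among the 14599 annotated genes at 1 TPM or more, 8.82% were higher and 9.03% lower by that threshold. The member median was 0.03, with the median of all genes at -0.0021. The mRNA past the threshold was Mars2, at -0.29 with a 95% counting interval of -0.39 to -0.20. Lars2 was the highest at 0.23, with an interval of 0.23 to 0.24, and Rars2 followed at 0.17 with 0.07 to 0.28. Counting intervals excluded 0 for 14 members, 5 upward and 9 downward, and covered 0 for 24. Over all genes tested 27.7% were so upward and 27.2% downward. They cover counting error only.

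**Figure D4:**
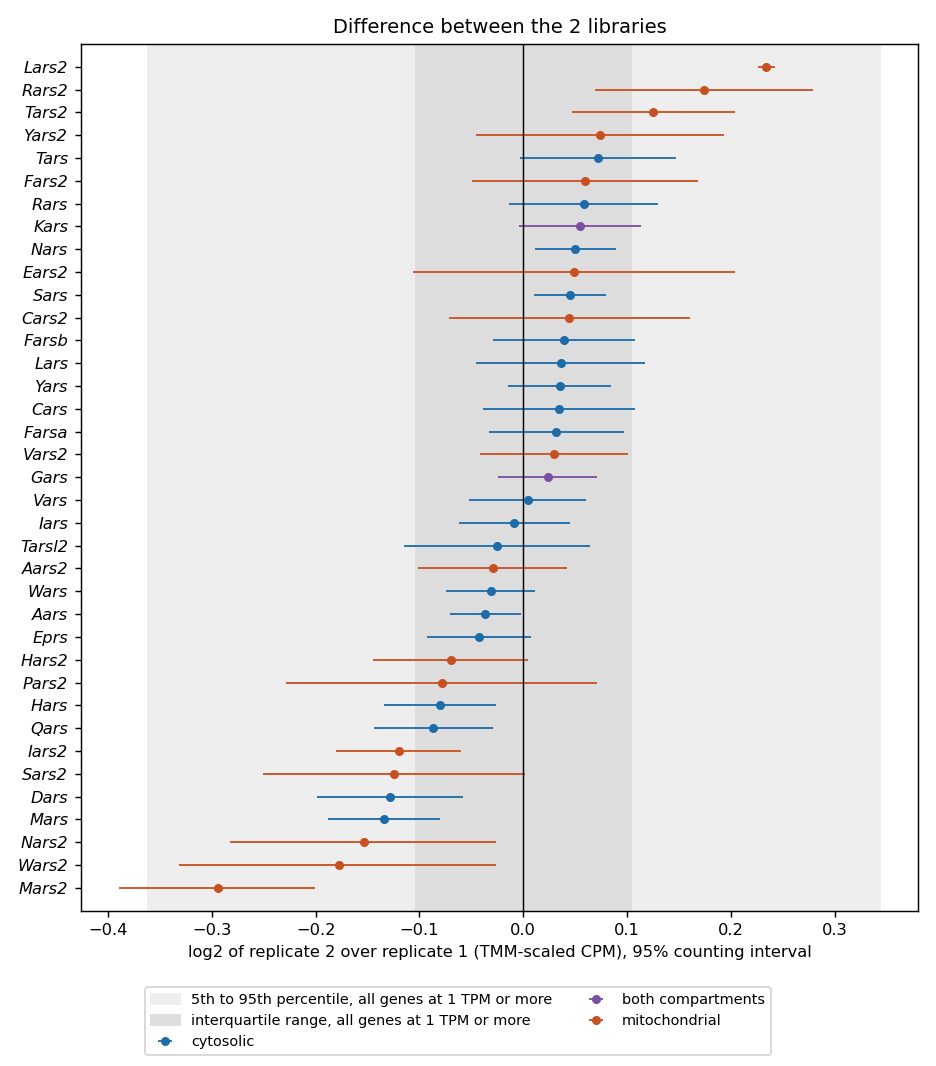
Log2 of replicate 2 over replicate 1 for 37 members with their 95% counting intervals, coloured by compartment, over shading for the percentiles of all genes at 1 TPM or more. Mars2 at -0.29 and Lars2 at 0.23 are the ends of the range, and all 37 drawn lie inside the band from the 5th to the 95th percentile, -0.36 to 0.34.

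The compartments did not separate between libraries: 9 of 17 mitochondrial and 10 of 19 cytosolic genes were higher in replicate 2. On deposited TPM, where the median of all genes moved by -0.12, 33 of 38 members were lower in replicate 2 and 5 passed the threshold downward with a pseudocount of 1. Over all genes tested 76.5% were lower and 18.8% passed downward. Cell type markers moved between the same libraries. Microglial markers summed to 82.4 and 54.0 TPM, with 3 of 3 past the threshold downward. Oligodendrocyte markers summed to 1447 and 1781 TPM, with 2 of 3 past it upward. The part of cell makeup in the differences of single synthetases was not tested. Sex, as read from the sex-linked genes, went with replicate and cannot be told apart from other differences between the libraries.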

How the data were processed

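Both libraries of frontal cortex were used, as 1 group with 2 biological replicates. Nothing in the labels says whether they share animals, but their sex-linked genes differed. The spread may be partly technical and also spans that difference. Per the deposited text description the authors quantified genes and transcripts on mm10 with annotation release M4; the program is not given in the sources used here. From the deposited tables, expected counts, TPM with its posterior means and interval bounds, whose level is not stated, and the percent of a gene's TPM per transcript were used. The deposited FPKM was not used. Symbols, transcript classes and coordinates came from GENCODE M21, matched by identifier for 42462 of 43346 genes. Of the members' 193 transcripts 1 had no match. A complete coding transcript is protein-coding without a tag for a missing start or end.

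Levels are the deposited TPM, and SDs are over 2 libraries. Replicate ratios used rounded expected counts without spike-ins, CPM with a prior count of 2 and TMM factors of edgeR 4.0.16 (R 4.3.3), tested on simulated data, for genes averaging at least 1 TPM. Counting intervals (95%) are exact conditional binomial; PCR reads are not independent molecules. Alternatives included scaling by library size, by the spike-in total or by DESeq2 1.42.0, posterior means and other thresholds. Members, classes and lists were chosen with earlier results of these data known. Members are named by rule, and of other lists the highest and lowest genes and those a result turns on. AA474408, Gm15564, Gm42418 and Gm26917 were chosen after values were seen. Protein sequences were not used here. Of the members, 1 is kept in all counts and medians but is not reported here by itself.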

Additional observations from a re-analysis of the deposited data

How the results depend on the processing

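Of 50 recomputed values, 38 stayed within the spread between libraries (or 1.5 times a count) and none changed direction where a direction had been called. The differences between class I and class II were not among these values, and they changed sign in some settings, as given above. The count of 27 genes at 10 TPM became 17 at 20 TPM. The cytosolic over mitochondrial difference of 1.50 became 1.90 from counts not divided by length, 1.66 with Gars and Kars counted as cytosolic, 1.58 without Tarsl2, 1.41 with a pseudocount of 1 TPM and 0.92 over complete coding transcripts. That last setting and those without Lars2 were chosen after seeing the data. The complex over free difference of -0.62 became -0.23 from counts not divided by length, -0.58 without Gars and Kars and -0.73 over complete coding transcripts. The replicate median of 0.03, not called in either direction, became -0.10 on TPM, -0.03 by library size and -0.01 by the spike-in total. The single member past the replicate threshold became 0 at a log2 of 0.5 and 5 on TPM. Leaving out each library gave 27 to 27 genes at 10 TPM, 1.45 to 1.55 for the compartments, 14 to 14 pairs, -0.63 to -0.61 for the complex and 67.3% to 74.4% for the leading transcript. The 14 pairs became 15 by sign and SD alone, on TPM or on counts, and with Tars and Tarsl2 summed. No paired analysis was possible because there is 1 group. With 2 libraries, SDs have 1 degree of freedom, and the lowest member count of 609 gives wide counting intervals for Ears2, Pars2 and Wars2.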

Other observations

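Several synthetase genes overlap a neighbour in GENCODE M21. Hars and Hars2 overlap on opposite strands by 198 nt at their starts. The gene of Mars overlaps that of Ddit3, a transcription factor of the stress response, by 68 nt on opposite strands, and Ddit3 stood at 42.9 and 44.1 TPM. Tarsl2 overlaps Tm2d3 by 923 nt on the same strand, and Tm2d3 stood at 52.0 and 52.7 TPM. Aars overlaps the protein-coding gene Exosc6 by 1326 nt on the same strand, and no TPM was matched for Exosc6. Whether reads of these neighbours enter the counts of Tarsl2 or Aars was not tested. The libraries are stranded, but the strand setting of the quantification is not given in the sources used here. The deposited posterior SD of the count was 0 in both libraries for 37 of 38 members, Tarsl2 and Mars included, beside 88.9% of protein-coding genes at 1 TPM. Qars was the exception, with posterior SDs of 16.2 and 14.5 counts.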
